A study of Homo sapiens with 6 samples.

Results

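The 55 genes described here encode the machinery that shortens, uncaps and degrades messenger RNA, together with the factors of nonsense-mediated decay and the ZFP36 proteins that bind AU-rich elements. They were chosen by symbol from a fixed list, and all 55 were found among the 19977 gene symbols of the deposited table. The series measured polyadenylated RNA in U2OS, a human osteosarcoma cell line, 48 hours after transfection of siRNA, in cells otherwise untreated. One group of 3 libraries received a non-targeting control siRNA (siCtrl) and the other group of 3 an siRNA against NUDT5 (siNUDT5), the gene of a NUDIX hydrolase that cleaves ADP-ribose. The comparison asks how the RNA level of these factors differs when NUDT5 is lowered. In this design an effect of lowered NUDT5 and any other effect of its siRNA cannot be told apart. Values are TPM, an abundance scaled for transcript length and for the library total, and values given library by library are in the order of replicates 1 to 3.

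Most mRNAs are destroyed after their poly(A) tail has been shortened by the PAN2-PAN3 and CCR4-NOT deadenylases. The cap is then removed by DCP2 with its activators and the body is digested from the 5' end by XRN1, or the body is digested from the 3' end by the exosome with the SKI complex. Nonsense-mediated decay recognises a stop codon placed too early or before a long 3' UTR, through UPF1, its kinase SMG1 and the adaptors SMG5 and SMG6. ZFP36 proteins bind AU-rich elements in the 3' UTR and recruit CCR4-NOT.

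NUDT5 itself gave 46.2, 49.0 and 52.0 TPM in the controls against 3.04, 2.74 and 2.67 TPM after knockdown, so that each library matched its label (exact two-sided permutation test, p = 0.1, the smallest that 3 against 3 libraries allow). Total depth cannot be read from TPM. Relative depth can, because the values of low genes step by single reads, and siCtrl 2 had a depth of 64.1% of that of siCtrl 1, while the other 4 had 89.4% to 118%. Over the decay factors siCtrl 2 was also set apart: its median absolute difference in log2(TPM + 1) was 0.301 to siCtrl 1 and 0.243 to siCtrl 3, while the remaining pairs within a group gave 0.0800 to 0.138. Among 8 mesenchymal or bone-lineage markers VIM, SPARC, CDH2, CD44 and RUNX2 were expressed, and COL1A2, TWIST1 and NT5E were below 0.4 TPM in each library. Their sum was 4000 to 4125 TPM in siCtrl and 4547 to 4633 TPM in siNUDT5. Among markers of other cell types CD3E was listed at 0 throughout, PTPRC, KRT5 and ALB stayed below 0.4 TPM, CDH1 was near 2 TPM, and EPCAM fell from 7.18, 12.8 and 9.68 TPM to 5.10, 5.38 and 5.70 TPM (adjusted p = 0.0271 by limma). The sums of these markers were 9.73 to 15.1 TPM in siCtrl and 7.60 to 7.73 TPM in siNUDT5, and their part in the results on the decay factors was not tested. Whether the 6 libraries are separate cultures is not stated in the labels, and the p-values therefore cover the spread among these libraries alone, which may be technical.

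After NUDT5 knockdown 6 of the 55 decay factors fell, 1 rose and 48 did not pass. In bulk RNA fewer cells that express a gene and less of its RNA per cell cannot be told apart. The falls were in the catalytic decapping enzyme DCP2, the deadenylase subunit PAN3, the nonsense-mediated decay factors SMG9, SMG5 and UPF3B, and the AU-rich element binding protein gene ZFP36L1. The rise was in the exosome subunit EXOSC2. The threshold was an adjusted p of 0.05 in limma on log2(TPM + 1), two-sided, with Benjamini-Hochberg adjustment over the 12236 genes whose mean reached 1 TPM, among them all 55 factors. Log2 changes below are siNUDT5 minus siCtrl on that scale. Of all tested genes 16.1% passed, 10.9% upward and 5.20% downward, against 12.7% of the decay factors, 1.82% upward and 10.9% downward. The median log2 change of the factors was 0.03 (quartiles -0.14 and 0.11), beside 0.05 (quartiles -0.12 and 0.23) for all tested genes. With median-ratio scaling 1034 of all tested genes rose and 904 fell, and of the decay factors 0 and 6. The groups did not overlap in 16 of the 55 factors (29.1%) and in 37.3% of all tested genes.

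The number of calls changed with the library left out. Leaving out siCtrl 1 kept all 7 calls and added none. With siCtrl 3, siNUDT5 1 or siNUDT5 2 left out, 0 factors rose and 6, 5 and 5 fell, while 6.34% to 7.09% of all genes passed. Without siCtrl 2, 7 factors rose and 9 fell while 31.1% of all genes passed. Without siNUDT5 3 only SMG5 and SMG9 remained past the threshold, in a setting where 6.24% of all genes passed and 1.74% fell.

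**Figure D1:**
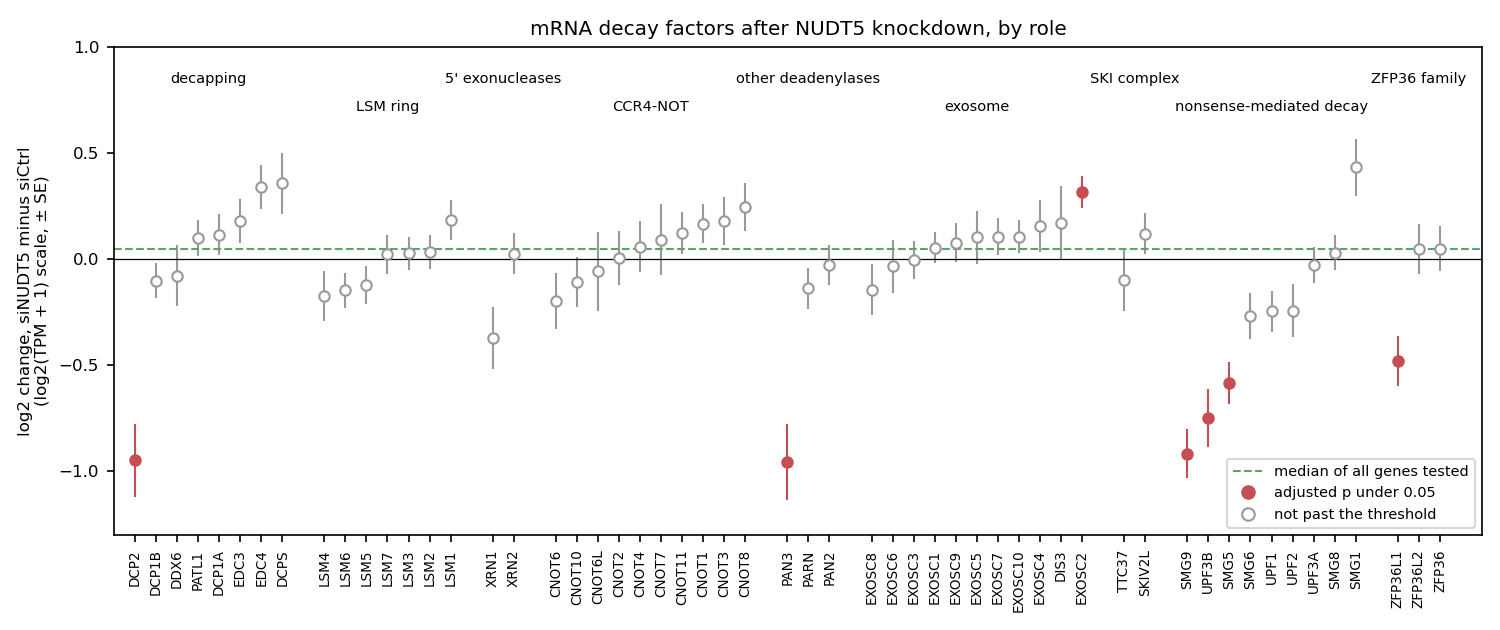
Log2 change of each of the 55 decay factors (y axis, siNUDT5 minus siCtrl on the log2(TPM + 1) scale, bars are the standard error of the limma fit), grouped by role on the x axis. Filled red points passed an adjusted p of 0.05; the 6 falls, from -0.96 to -0.48, lie below all remaining factors, and the dashed line is the median of all genes tested, 0.05.

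Decapping was represented by 8 genes, of which DCP2 fell, none rose and 7 did not pass. DCP2, the NUDIX hydrolase that cuts the cap from the mRNA and so belongs to the same enzyme superfamily as NUDT5, gave 32.2, 51.4 and 35.8 TPM in the controls against 22.7, 17.7 and 19.1 TPM after knockdown. Each siNUDT5 library was below each control, and siCtrl 2 was the highest control. The mean was 39.8 ± 10.2 TPM against 19.8 ± 2.54 TPM (mean ± SD, n = 3 each), a log2 change of -0.95 (standard error 0.173, adjusted p = 0.00911). Without siCtrl 2 the change was -0.75 with adjusted p = 0.000216, and without siNUDT5 3 it was -0.93 with adjusted p = 0.0504.

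The activators and partners of DCP2 had smaller changes, none past the threshold. DCP1A and DCP1B, the paralogous activating subunits, had log2 changes of 0.12 and -0.10. The scaffold gene EDC4 was higher in each siNUDT5 library, at 27.5 to 30.8 TPM against 20.0 to 24.1 TPM in siCtrl, a log2 change of 0.34 (adjusted p = 0.0590). It passed without siCtrl 2, at 0.26 with adjusted p = 0.0357. DCPS, the scavenger enzyme that clears the cap left after 3' to 5' decay, was at 23.8 to 29.9 TPM against 16.3 to 22.7 TPM, a log2 change of 0.36 with adjusted p = 0.134. The enhancer EDC3 (0.18), the bridging factor PATL1 (0.10) and the helicase DDX6 (-0.08) overlapped between the groups.

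DCP2 has the longest 3' UTR among the 6 factors that fell, 7486 bases in the longest annotated form (GENCODE 29), beside a median of 1649 over the 55 factors and 1658 over 11985 tested genes with an annotated 3' UTR. That 3' UTR holds 3 copies of AAGACTT, and the 3' UTR of PAN3, of 2813 bases, holds 1. AAGACTT is a 7-base word that an earlier search on these same log2 changes had picked, as were AGACTTA and, for rises, GATTAAC, so that their presence in a factor that changed is no separate evidence. The sites are shown because the pair of factors with the largest falls carry them, with the word in capitals and its first base counted from the start of the 3' UTR.
DCP2 from base 3956: attatgtcctAAGACTTgaaagtgcat
DCP2 from base 6478: ggaaagtggtAAGACTTgactttttaa
DCP2 from base 6516: tttccaaaagAAGACTTgatgtggctt
PAN3 from base 307: taattttttaAAGACTTtttctgatct
Of the 55 factors 12 (21.8%) held AAGACTT or AGACTTA on the sense strand, beside 24.1% of all searched genes. The 12 had a median log2 change of -0.07, and the 43 factors without either word a median of 0.03, a gap near that over all searched genes, where the medians were -0.01 and 0.07. Over all searched genes 267 of the 2891 with either word fell and 252 rose. Of the 9094 without either word 352 fell and 1074 rose. The words were picked on these same changes, so these counts are no separate evidence either. The 3' UTRs of the 12 factors were also longer, with a median of 3595.5 bases against 1234 in the 43. Carriers included factors that did not pass, such as CNOT8 (0.25), DDX6 (-0.08) and XRN1 (-0.37), and the other 4 factors that fell, SMG9, SMG5, UPF3B and ZFP36L1, held neither word. GATTAAC was found in CNOT7 and SMG1.

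The LSM1 to LSM7 ring, which binds the 3' end of deadenylated mRNA and promotes decapping, had no member past the threshold in 7 tested. LSM1, the subunit that sets the cytoplasmic ring apart from the nuclear one, had the highest change, 0.18 (adjusted p = 0.228), from 99.6 ± 10.6 to 113 ± 3.33 TPM (SD, n = 3 each), and LSM4 the lowest, -0.18 (adjusted p = 0.350). LSM4 passed without siCtrl 2, at -0.29 with adjusted p = 0.0158. XRN1, the cytoplasmic exonuclease that degrades decapped mRNA, gave 8.87, 13.1 and 9.46 TPM in the controls against 8.45, 7.24 and 7.60 TPM after knockdown. Its groups did not overlap, but the log2 change of -0.37 was not past the threshold (adjusted p = 0.127), and it was past it only with quantile normalization. Its nuclear relative XRN2 was far more abundant in TPM, at 218 ± 25.8 and 221 ± 9.03 TPM, with a log2 change of 0.03.

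Among the deadenylases PAN3 fell and none of the other 12 genes passed. PAN3, the subunit that recruits the PAN2 nuclease to the poly(A)-binding protein, gave 13.5, 22.2 and 16.3 TPM in the controls against 9.74, 7.40 and 7.85 TPM after knockdown. All siNUDT5 values were below all control values, and siCtrl 2 was again the highest control. The mean went from 17.4 ± 4.44 to 8.33 ± 1.24 TPM (mean ± SD, n = 3 each), a log2 change of -0.96 (standard error 0.179, adjusted p = 0.00989). It was -0.77 without siCtrl 2 (adjusted p = 0.000609) and -0.92 without siNUDT5 3 (adjusted p = 0.0540). PAN2, the nuclease, was at 7.50 ± 0.0766 and 7.33 ± 0.245 TPM (log2 change -0.03), and the poly(A)-specific ribonuclease PARN had a log2 change of -0.14 (adjusted p = 0.380).

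The CCR4-NOT complex, built on the scaffold CNOT1, had none of 10 genes past the threshold, and none whose groups did not overlap. Its largest log2 changes were 0.25 in the nuclease subunit CNOT8 (adjusted p = 0.181) and -0.20 in the nuclease subunit CNOT6 (adjusted p = 0.347). siCtrl 2 was the highest control in 9 of the 10 subunits and stood at a median of 125% of the mean of the other controls, where it was the highest control in 50% of all tested genes. Without siCtrl 2 CNOT8 (0.34, adjusted p = 0.0110), CNOT7 (0.29, adjusted p = 0.0210) and CNOT1 (0.24, adjusted p = 0.0237) passed upward. CNOT7 shows the spread in the controls, with 97.7, 163 and 116 TPM in siCtrl 1 to 3 around the 140, 123 and 130 TPM of siNUDT5 1 to 3.

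**Figure D2:**
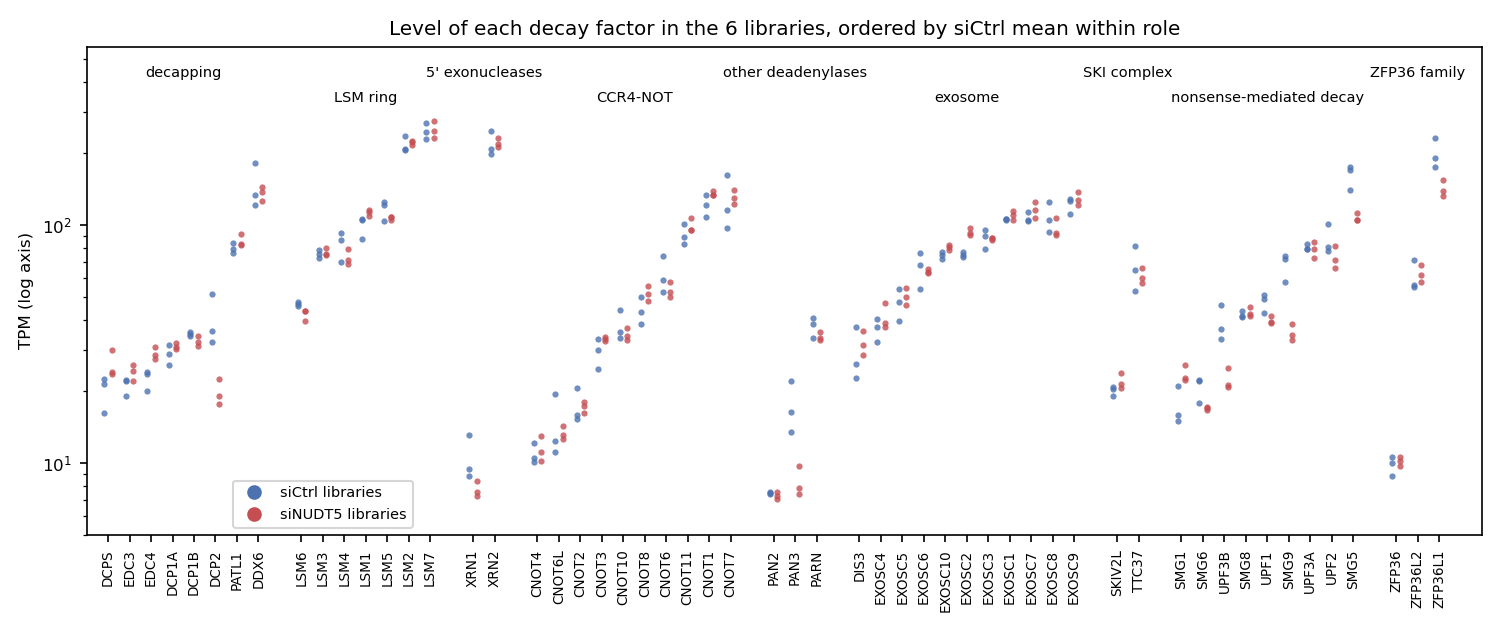
TPM of each decay factor (log y axis) in the 3 siCtrl libraries (blue) and the 3 siNUDT5 libraries (red), ordered within each role by the siCtrl mean. Subunits of one complex span a wide range, from 28.7 to 122 TPM in the exosome and from 10.9 to 125 TPM in CCR4-NOT, and the red points leave the blue ones in a few factors such as DCP2, PAN3 and SMG9.

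The exosome held the single rise. EXOSC2, a cap subunit with RNA-binding domains, gave 74.6, 73.5 and 77.1 TPM in the controls against 92.7, 97.0 and 91.0 TPM after knockdown. The groups were well apart, with means of 75.05 ± 1.84 and 93.6 ± 3.12 TPM (mean ± SD, n = 3 each) and a log2 change of 0.31 (standard error 0.0753, adjusted p = 0.0259). The call was lost with median-ratio scaling (0.26, adjusted p = 0.0509), with quantile normalization (0.26, adjusted p = 0.0589) and without siCtrl 3 or any 1 siNUDT5 library (adjusted p 0.0916 to 0.130), while the log2 change stayed between 0.26 and 0.33.

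The other 10 exosome genes did not pass. Their log2 changes ran from -0.15 in EXOSC8 to 0.17 in the nuclease gene DIS3, which passed without siCtrl 2 at 0.37 (adjusted p = 0.0168). EXOSC10, the nuclear exosome nuclease, was higher in each siNUDT5 library, at 78.6 to 82.4 TPM against 72.2 to 77.3 TPM (log2 change 0.11, adjusted p = 0.382). In the SKI complex, which feeds cytoplasmic mRNA to the exosome, the helicase SKIV2L had a log2 change of 0.12 and the scaffold TTC37 one of -0.10, neither past the threshold.

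Nonsense-mediated decay factors held 3 of the 6 falls. Of 9 tested SMG9, UPF3B and SMG5 fell (33.3%, beside 5.20% of all tested genes), none rose and 6 did not pass, with a median log2 change of -0.25 beside 0.05 for all tested genes. All 3 siNUDT5 libraries were below all controls in 5 of the 9 (UPF1, UPF3B, SMG5, SMG6 and SMG9), a pattern seen in 12.9% of all tested genes, and above all controls in SMG1. The summed TPM of the 9 was 554 to 573 in siCtrl and 429 to 456 in siNUDT5. That sum includes the 3 falls and is no separate result: SMG5, the most abundant of the 9, alone went from 162 to 107 TPM in the means.

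SMG9, which with SMG8 forms the regulatory subcomplex of the SMG1 kinase, had the lowest adjusted p among the decay factors. SMG9 gave 74.4, 57.9 and 71.8 TPM in the controls against 34.6, 38.5 and 33.1 TPM after knockdown, with siCtrl 2 the lowest control. The means were 68.0 ± 8.87 and 35.4 ± 2.83 TPM (mean ± SD, n = 3 each), a log2 change of -0.92 (standard error 0.116, adjusted p = 0.00214). SMG8 was at 42.1 ± 1.25 and 43.0 ± 1.86 TPM (log2 change 0.03, adjusted p = 0.839). SMG1 gave 15.1, 21.1 and 16.0 TPM in the controls against 25.7, 22.4 and 22.7 TPM after knockdown, a log2 change of 0.43 that was not past the threshold (adjusted p = 0.0633). It passed without siCtrl 2, at 0.57 with adjusted p = 0.000637. SMG1 has near-identical partial copies elsewhere, and the treatment of reads that fit several copies, a point not given in the sources used here, leaves its level uncertain.

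SMG5, the adaptor that leads phosphorylated UPF1 to deadenylation and decapping, gave 175, 140 and 171 TPM in the controls against 105, 112 and 105 TPM after knockdown. Its mean went from 162 ± 19.1 to 107 ± 4.39 TPM (mean ± SD, n = 3 each), a log2 change of -0.58 (standard error 0.101, adjusted p = 0.00727). SMG5 and SMG9 passed under every alternative that was run. SMG6, the endonuclease that cuts near the premature stop, was at 16.7 to 17.2 TPM against 17.9 to 22.4 TPM, a log2 change of -0.27 (adjusted p = 0.132), and the central helicase UPF1 at 38.6 to 41.5 TPM against 42.6 to 51.0 TPM, a log2 change of -0.25 (adjusted p = 0.119). Both passed downward without siCtrl 2, SMG6 at -0.37 (adjusted p = 0.00604) and UPF1 at -0.32 (adjusted p = 0.00774).

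UPF3B, which links UPF2 to the exon junction complex, gave 36.5, 46.2 and 33.3 TPM in the controls against 25.2, 21.0 and 21.2 TPM after knockdown. The groups did not overlap and siCtrl 2 was the highest control. The means were 38.6 ± 6.71 and 22.5 ± 2.39 TPM (mean ± SD, n = 3 each), a log2 change of -0.75 (standard error 0.136, adjusted p = 0.00901), and adjusted p was 0.0534 without siNUDT5 3. Its paralog UPF3A was at 80.5 ± 2.55 and 79.1 ± 6.03 TPM (log2 change -0.03, adjusted p = 0.868), and UPF2 had a log2 change of -0.24 (adjusted p = 0.225).

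**Figure D3:**
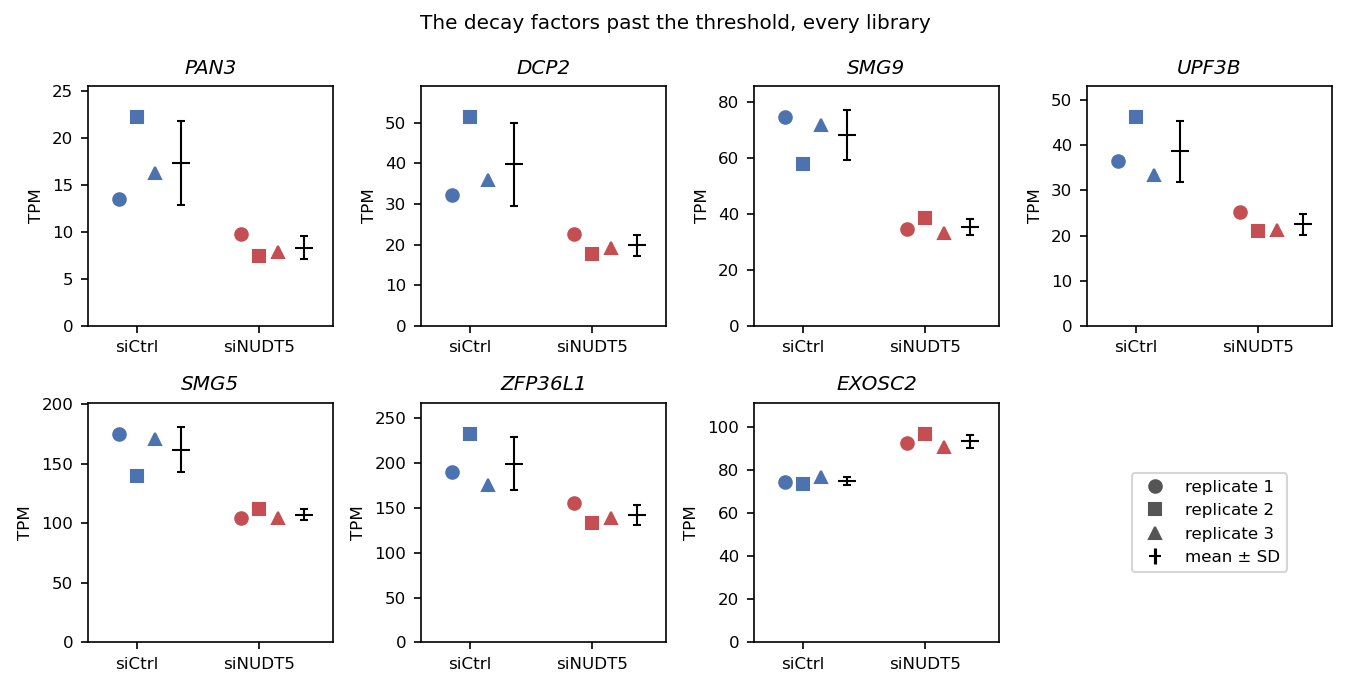
TPM (y axis from 0) of the 7 decay factors past the threshold in every library, with siCtrl in blue and siNUDT5 in red, a marker shape for each replicate number and the mean ± SD in black. No panel has overlapping groups; siCtrl 2 (square) is the highest control in PAN3, DCP2, UPF3B and ZFP36L1 and the lowest in SMG9, SMG5 and EXOSC2.

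The ZFP36 family, whose proteins bind AU-rich elements and shorten the life of the mRNA, had ZFP36L1 past the threshold and its relatives not. ZFP36L1 gave 191, 233 and 176 TPM in the controls against 155, 133 and 138 TPM after knockdown. The groups did not overlap, and the mean went from 199.7 ± 29.7 to 142 ± 11.5 TPM (mean ± SD, n = 3 each), a log2 change of -0.48 (standard error 0.116, adjusted p = 0.0266). The adjusted p was 0.0546, 0.107 and 0.110 without siNUDT5 1, 2 and 3. ZFP36L2 was at 60.6 ± 9.13 and 62.4 ± 4.97 TPM (log2 change 0.05) and ZFP36 at 9.80 ± 0.872 and 10.2 ± 0.433 TPM (log2 change 0.05), so that ZFP36L1 was the most abundant of the 3 in both groups.

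All 3 family members carry, in their own 3' UTR, the 7-base core that these proteins bind, TATTTAT, with 3 copies each. At least 1 copy was found in 36.4% of all searched genes, and the share with 3 was not counted. Genes with the word had longer 3' UTRs, with a median of 2829.5 bases against 1214 in genes without it. The copies of ZFP36L1, the member that fell, are shown in the same form as above, in a 3' UTR of 2828 bases.
ZFP36L1 from base 2135: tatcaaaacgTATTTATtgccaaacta
ZFP36L1 from base 2177: attttgttcaTATTTATcgggatgaca
ZFP36L1 from base 2394: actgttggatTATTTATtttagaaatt
TATTTAT was found in 22 of the 55 factors (40%). Of these 22, 3 fell, DCP2, PAN3 and ZFP36L1, and of the 33 without it 3 fell and EXOSC2 rose. A match describes the annotated letters only.

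Each factor that fell has a partner or paralog with a smaller log2 change, and the ratio of the pair was lower in siNUDT5 in all 6 cases. The pairs were chosen after their values were seen and the ratios were not tested. Each numerator had already been called lower, with groups that did not overlap. Lower and separated ratios follow largely from that choice and are no separate result. On the TPM scale, which is per transcript length, DCP2 exceeded DCP1A in siCtrl, with ratios of 1.24, 1.64 and 1.25 in libraries 1 to 3, and was below it in siNUDT5, with 0.706, 0.578 and 0.631. The order also turned for SMG9 over SMG8, from 1.80, 1.33 and 1.73 to 0.816, 0.854 and 0.795. PAN3 over PAN2 went from 1.78, 2.97 and 2.20 to 1.37, 1.01 and 1.03, UPF3B over UPF3A from 0.479 ± 0.0675 to 0.284 ± 0.0157, and ZFP36L1 over ZFP36L2 from 3.30 ± 0.106 to 2.28 ± 0.0286 (SD, n = 3 each). SMG5 over SMG6, from 7.78 ± 0.0490 to 6.30 ± 0.190, differed least, since SMG6 was also at lower values in siNUDT5. In none of these 6 pairs did the groups' ratios overlap. For ZFP36L1 over ZFP36L2 and SMG5 over SMG6 the 3 controls lay close together, siCtrl 2 included.

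**Figure D4:**
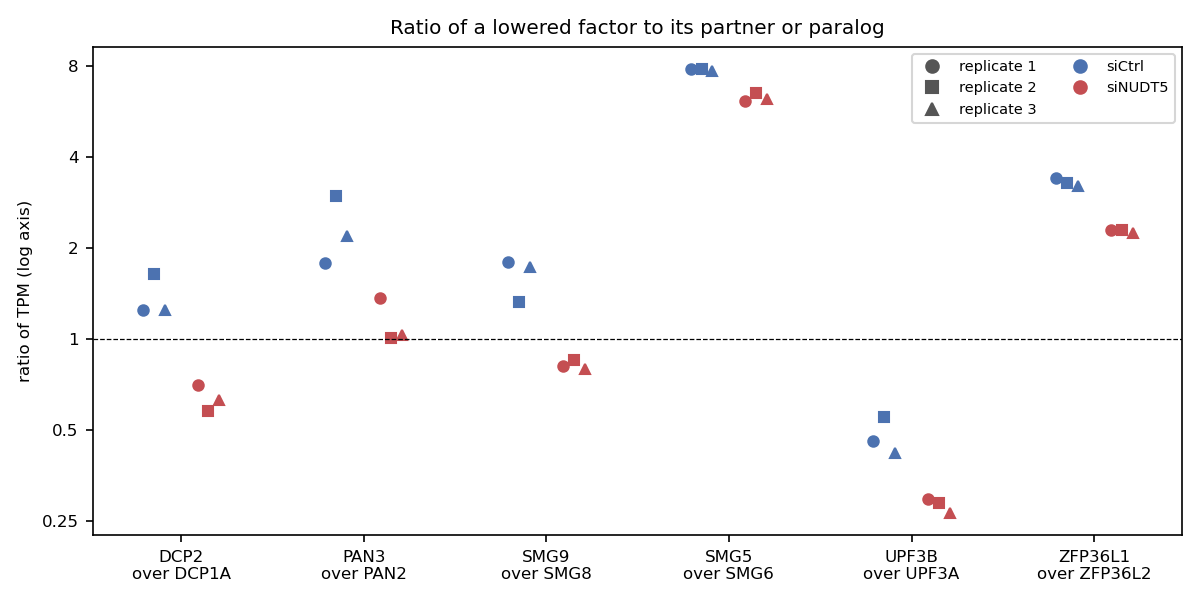
Ratio of TPM between a factor that fell and its partner or paralog (log y axis, dashed line at 1) in the 3 siCtrl (blue) and 3 siNUDT5 (red) libraries, with a marker shape for each replicate number. All red points lie below the blue points of the same pair, and DCP2 over DCP1A and SMG9 over SMG8 cross from above 1 to below 1. The pairs were chosen after their values were seen, so this separation is no separate result.

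Other factors of the same pathways, 60 genes tested of 61 listed, were mostly not past the threshold. Of these 2 rose (3.33%, beside 10.9% of all tested genes), 1 fell (1.67%, beside 5.20%) and 57 did not pass, with a median log2 change of 0.08. PNRC2, an adaptor described as joining UPF1 to the decapping complex, gave 69.1, 106 and 79.0 TPM in the controls and rose to 216, 175 and 178 TPM after knockdown. Its log2 change of 1.17 (standard error 0.157, adjusted p = 0.00265) exceeded in size that of each of the 55 factors. ELAVL1, which encodes HuR, a protein that binds AU-rich elements and stabilises the mRNA, rose from 46.8 ± 2.02 to 67.0 ± 0.705 TPM (mean ± SD, n = 3 each), a log2 change of 0.51 (standard error 0.0786, adjusted p = 0.00476). DIS3L, the cytoplasmic exosome nuclease, fell from 49.5 ± 5.62 to 37.9 ± 1.86 TPM (log2 change -0.37, adjusted p = 0.0445), a call lost without siCtrl 3 or any 1 siNUDT5 library (adjusted p 0.107 to 0.171), with no filter on low values (0.0618) and with eBayes without a trend (0.0533).

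By role, none of 13 other deadenylation factors and none of 15 other nonsense-mediated decay and exon junction factors passed in limma, with 3 (23.1%) and 3 (20%) of them at an unadjusted p under 0.05, beside 31% of all tested genes. In the second of these lists the groups did not overlap in 5 of the 15 (33.3%, beside 37.3% of all tested genes). Its largest log2 change was -0.36 in NCBP2, the small subunit of the nuclear cap-binding complex (adjusted p = 0.0591), which was lower in each siNUDT5 library than in each control. Of the core exon junction genes EIF4A3 (0.22, adjusted p = 0.0812), RBM8A (0.23, adjusted p = 0.0738) and CASC3 (0.13, adjusted p = 0.261) were higher in each siNUDT5 library, a pattern seen in 24.3% of all tested genes, and MAGOH (-0.04) and MAGOHB (0.14) overlapped between the groups. These 6 genes were chosen after their values were seen. Without siCtrl 2, 15 of the 60 rose (25%) and 3 fell (5%), beside 21.9% and 9.27% of all genes in that setting.

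AAGACTT or AGACTTA was found in 15 of the 60 (25%, beside 24.1% of all searched genes) and GATTAAC in 5 (8.33%, beside 6.37%). PNRC2 holds GATTAAC in its 3' UTR, ELAVL1 holds GATTAAC and AAGACTT, and DIS3L holds 2 copies of AAGACTT. The remaining carriers of GATTAAC, PUM2, FXR1 and RBM8A, did not pass. The words were picked on these same log2 changes, so these matches are no separate evidence. Carriers of GATTAAC among the 60 also had longer 3' UTRs, with a median of 4326 bases against 1781 in those without it.

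Transcripts listed as sensitive to nonsense-mediated decay were lower or not past the threshold. Of 15 listed 12 were tested, since GAS5, SNHG12 and ZFAS1 were not among the gene symbols of the deposited table. Of the 12 tested 8 fell and none rose, beside 5.20% of all tested genes that fell, and their median log2 change was -0.44. They included SLC7A11 (-1.13), CHAC1 (-1.02), ATF4 (-0.92), ASNS (-0.70), ATF3 (-0.64) and GADD45A (-0.45), and UPP1 (-0.44) and CARS (-0.29) were the remaining falls. Most of these are also genes of the amino acid response around ATF4, and the list was written with several of these falls known, so that the count is no independent measure of decay. Of the 4 that did not pass, NAT9 was lower in each siNUDT5 library than in each control (-0.44, adjusted p = 0.0605), DDIT3 (-0.31) and GADD45B (-0.12) overlapped between the groups, and TBL2 alone among the 12 had a log2 change above 0 (0.04, adjusted p = 0.837). These 4, UPP1 and CARS were named after their values were seen. Between 6 and 9 fell when any 1 library was left out, in settings where 1.74% to 9.27% of all genes fell.

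Transcripts listed for AU-rich elements moved in both directions. Of 24 listed 18 were tested, and 15 of these 18 held TATTTAT in the longest annotated 3' UTR. The 3 without it were IER2, PLAUR and MYC. Of the 15 with the word 4 rose and 2 fell, and of the 3 without it 2 rose and 1 fell. The median log2 changes were 0.09 with the word and 0.39 without it. The immediate early gene FOS rose from 2.79 to 6.17 TPM in the means (log2 change 0.91), and IER3 (0.81), the urokinase gene PLAU (0.55), the cytokine gene IL11 (0.45), the urokinase receptor gene PLAUR (0.41) and IER2 (0.39) rose with it. The 3 that fell, named after their values were seen, were VEGFA (-0.38), the phosphatase gene DUSP1 (-0.37) and MYC (-0.35). With 6 higher (33.3%, beside 10.9% of all tested genes), 3 lower (16.7%, beside 5.20%) and 9 not past the threshold the median was 0.12. Without siCtrl 3, siNUDT5 1, siNUDT5 2 or siNUDT5 3 the rises numbered 3, 3, 2 and 3 and none fell, in settings where 6.24% to 7.09% of all genes passed.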

How the data were processed

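RNA was purified on RNeasy columns and sequenced from stranded KAPA mRNA libraries, per the labels' protocols. The authors deposited TPM per gene symbol, with the same total in each library. Tools listed in the submitters' processing notes are STAR 2.7.3a and DESeq2 1.22.1, with the build hg19 and no roles stated. The TPM method, the annotation and any use of strand were not given in the sources used here.

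Groups and replicate numbers came from the titles. TPM being normalized values, no count model was run. Genes averaging 1 TPM or more were tested on log2(TPM + 1) with limma 3.58.1 in R 4.3.3 (lmFit, eBayes with a trend), and an adjusted p under 0.05 counted as passing. In a simulated siNUDT5 minus siCtrl comparison of 12236 genes the fit recovered 34% of genes shifted by 0.5 and 89% of those shifted by 1 (log2), with 6 false calls. Permutation used scipy 1.17.1.

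Relative depth was read from genes under 0.3 TPM. With 1 factor for each library, 80.6% to 86.1% of the ratios to siCtrl 1 matched a fraction of integers from 1 to 5 within 0.1%.

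The 3' UTR of each gene was the bases past the stop codon in the annotated transcript where these are longest (GENCODE 29), of at least 50 bases, matched by symbol and for 506 genes by a RefSeq synonym. Words were searched on the sense strand. No coordinates are given, because that annotation is of another build.

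Members and gene lists were chosen with earlier results of these data known. Of 171 list entries 166 matched a symbol. Named were NUDT5, each decay factor past the threshold, the 2 with the largest changes in each role, and in each other list up to 6 past the threshold by size of change. Alternatives tried were a pseudocount of 0.1 or 5, a filter at 5 TPM or none, scaling by median ratios or quantiles, eBayes robust or without a trend, a replicate block, and each library left out. The values of some listed genes are not reported here.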

Additional observations from a re-analysis of the deposited data

How the results depend on the processing

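The number of decay factors that fell was 6 and stayed at 5 to 7 with other pseudocounts, filters, scalings, prior variances and the replicate block. The number that rose was 1 and became 0 with median-ratio scaling, 0 with quantile normalization and 0 with the replicate block. Leaving out 1 library gave 0 to 7 rises and 2 to 9 falls. The highest counts came without siCtrl 2, where 31.1% of all genes passed. The fewest falls came without siNUDT5 3, where 6.24% of all genes passed. The cause was not tested. None of the 7 factors past the threshold changed direction under any of these settings, and the log2 change of NUDT5 passed in all. Same-numbered libraries did not deviate together (correlations of -0.426, -0.538 and -0.0449 for numbers 1 to 3), so the numbers were not taken as pairs. Some libraries of different number did, with 0.462 for siCtrl 2 and siNUDT5 1 and 0.492 for siCtrl 1 and siNUDT5 2. The value was 0.323 for siCtrl 3 and siNUDT5 2, and the remaining combinations gave -0.273 to 0.0648. With the replicate block 6.04% of all genes passed instead of 16.1%, 0 decay factors rose and 5 fell, EXOSC2 (adjusted p = 0.185) and ZFP36L1 (adjusted p = 0.0771) being lost. In the same fit ELAVL1 (adjusted p = 0.0527) and DIS3L (adjusted p = 0.173) did not pass, the transcripts listed as sensitive to nonsense-mediated decay had 5 falls instead of 8, and those listed for AU-rich elements had 2 rises and 0 falls instead of 6 and 3. Scaling moved the median of the 55 log2 changes from 0.03 to -0.03 and that of all genes from 0.05 to just below 0. Total depth is unknown, so no counting interval is given; siCtrl 2 was the shallowest library.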
